A study of Mus musculus with 6 samples.

Results

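The genes described here are the 3 TGF-beta ligands (Tgfb1, Tgfb2 and Tgfb3), their 3 receptors (Tgfbr1, Tgfbr2 and Tgfbr3) and the 4 latent TGF-beta binding proteins (Ltbp1, Ltbp2, Ltbp3 and Ltbp4). They were chosen by symbol, and these 10 rows are 10 of the 24525 gene rows of the expression table. Each passed the filter of at least 1 TPM in at least 3 libraries and was tested. TPM is a relative abundance that allows for the length of each transcript, so levels of different genes can be set side by side. The study sequenced total RNA from mouse hearts taken at 3 to 6 months of age, with 3 libraries labelled WT (replicates 4, 5 and 6) and 3 labelled DKO (replicates 7, 8 and 9). The double knockout is given as Mbnl1-/-; Mbnl2cond/cond; Myh6-Cre+/-, that is, Mbnl1 null alleles that every cell carries and Mbnl2 alleles that Cre can recombine where the Myh6 promoter is active, in cardiomyocytes. In fibroblasts, vessels and immune cells Mbnl2 is not a target of this Cre. The WT group carries no further genotype in the labels, and strain and sex are not given there. For replicate 7 the title and source name say DKO whereas the genotype tag says WT, and it was counted as DKO.

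TGF-beta is secreted as a latent complex, in which the mature ligand is held by its own propeptide and, in most complexes, by a latent binding protein that anchors it to fibrillin and fibronectin in the matrix. Integrins, thrombospondin or proteases release the ligand, which binds the type II receptor TGFBR2, which in turn recruits and phosphorylates the type I receptor TGFBR1, the kinase that activates SMAD2 and SMAD3. Betaglycan, encoded by Tgfbr3, is a co-receptor that presents the ligands, TGF-beta 2 above all. In the heart this pathway is known for turning fibroblasts into matrix-producing cells and for its part in valve development.

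The 250 bases before a start site of the RefSeq promoter table (GRCm38.p6) are shown for the 3 genes that rose and have an entry there. They are also shown for Tgfb1 as the ligand whose groups overlapped. Capitals mark matches on either strand to 5 motifs, which were allowed to overlap. A TATA box was searched as TATAAA and a GC box as GGGCGG. The core of SMAD binding elements was searched as CAGAC and an E-box as CACGTG. An AP-1 site was searched as TGANTCA, where N is any base. The windows are chr1:186705990-186706239 on the minus strand for Tgfb2, chr12:84876492-84876741 on the minus strand for Ltbp2, chr4:47352972-47353221 on the plus strand for Tgfbr1 and chr7:25686752-25687001 on the plus strand for Tgfb1. The Tgfb2 window lies inside the span of its gene (186622787 to 186709697), so it precedes an internal start and not the outer end of the gene. The Ltbp2 window reaches into the span of its gene, which ends at 84876558. The windows of Tgfbr1 and Tgfb1 end where the spans of their genes begin.
Tgfb2: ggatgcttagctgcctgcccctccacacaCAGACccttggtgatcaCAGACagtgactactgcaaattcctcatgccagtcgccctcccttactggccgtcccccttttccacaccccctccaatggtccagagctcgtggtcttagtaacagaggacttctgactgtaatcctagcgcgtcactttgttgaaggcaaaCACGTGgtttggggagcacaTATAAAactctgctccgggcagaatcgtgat
Ltbp2: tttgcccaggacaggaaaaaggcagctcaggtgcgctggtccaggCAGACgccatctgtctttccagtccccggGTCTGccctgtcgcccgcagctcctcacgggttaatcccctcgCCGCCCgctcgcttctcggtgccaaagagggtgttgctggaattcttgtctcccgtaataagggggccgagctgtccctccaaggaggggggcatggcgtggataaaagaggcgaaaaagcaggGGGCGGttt
Tgfbr1: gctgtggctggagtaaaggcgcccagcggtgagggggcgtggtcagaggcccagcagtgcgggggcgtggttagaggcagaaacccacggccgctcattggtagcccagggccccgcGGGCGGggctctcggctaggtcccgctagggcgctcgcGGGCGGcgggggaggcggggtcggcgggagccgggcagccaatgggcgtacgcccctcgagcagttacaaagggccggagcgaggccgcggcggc
Tgfb1: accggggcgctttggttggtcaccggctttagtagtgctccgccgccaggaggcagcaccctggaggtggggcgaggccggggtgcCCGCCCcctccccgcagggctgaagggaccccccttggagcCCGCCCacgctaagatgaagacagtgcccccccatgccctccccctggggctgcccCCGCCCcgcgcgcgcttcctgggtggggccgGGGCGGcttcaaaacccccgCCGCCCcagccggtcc
The Tgfb2 window holds a TATA box that begins 31 bases before the start, an E-box at 51 bases and CAGAC at 204 and 221 bases. The Ltbp2 window holds 2 matches to CAGAC, at 176 and 205 bases, and GC boxes at 9 and 133 bases. The Tgfbr1 and Tgfb1 windows hold GC boxes alone, 2 and 5 of them, with a GC content of 74.8% and 75.2% against 53.6% for Tgfb2 and 61.6% for Ltbp2. Over all 32851 windows of this length in the table the median GC content was 52.4%, and 42.2% held CAGAC, 32.7% a GC box, 12.4% a TATA box, 6.75% an AP-1 site and 6.02% an E-box. Of the 10 genes, 8 had an entry, with 12 windows in all; CAGAC stood in the window of Tgfbr2, in that of Ltbp3, in both of Ltbp1 and in the second of Tgfbr1, and in none of the 3 of Ltbp4. A match is a run of letters and not a measured site.

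Of the 10 genes, 4 rose in the libraries labelled DKO and 0 fell (limma, Benjamini-Hochberg adjusted p under 0.05 over all 14541 genes tested). Those 4 were Ltbp2, Tgfb2, Tgfb3 and Tgfbr1. Over all genes tested 10.7% passed in either direction, 6.51% as higher and 4.22% as lower. The median log2 difference, taken as DKO less WT after log2(TPM + 1), was 0.24 over the 10 genes and 0.03 over all genes tested. The groups did not overlap for 6 of the 10, of which 5 lay above and 1, Tgfbr3, below WT; among all genes tested 33.0% did not overlap, 19.1% above and 13.8% below. An unadjusted p under 0.05 was reached by 6 of the 10, 5 higher and 1 lower, and by 27.0% of all genes. With 3 libraries in each group an exact permutation test (two-sided) cannot go below p = 0.1, and each gene whose groups did not overlap had that value. Without DKO 8 the count of genes that passed was 1, and it was 2 without WT 5, WT 6 or DKO 9. Means are given ± SD over the 3 libraries of a group. Nothing in the labels says that libraries came from separate animals, so p-values measure the spread between these libraries, which may be technical.

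**Figure D1:**
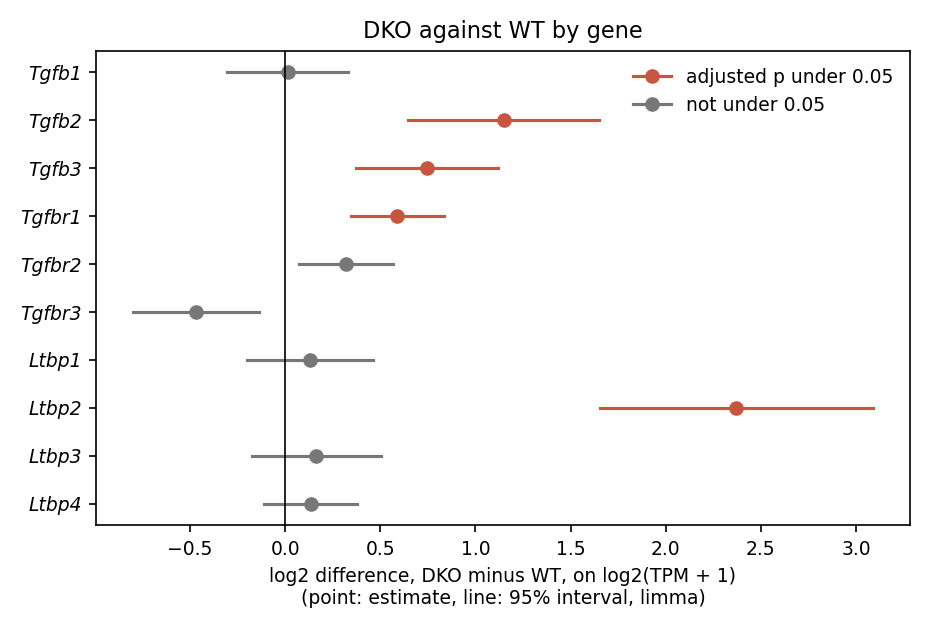
Log2 difference between DKO and WT on the log2(TPM + 1) scale for each gene (point) with its 95% interval from limma (line), red where the adjusted p was under 0.05. Ltbp2 lies at 2.37, Tgfb2 at 1.15, Tgfb3 at 0.75 and Tgfbr1 at 0.59, and the interval of Tgfbr3 lies below 0.

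Several facts of the whole series touch these values. Mbnl1 was lower in the libraries labelled DKO, at 102 to 108 TPM against 145 to 161 TPM, and Mbnl2 was higher, at 227 to 245 TPM against 149 to 189 TPM, the opposite of what its deletion would give; gene-level sums do not check a deletion, and every direction here rests on the labels. The call of Mbnl1 was kept in each fit that left out 1 library, whereas that of Mbnl2 was lost without WT 5, WT 6, DKO 7, DKO 8 or DKO 9 (limma, adjusted p = 0.0526 to 0.0748) and with no variance trend (0.0552). WT 4, WT 5, WT 6 and DKO 9 had Y-linked transcripts, whereas DKO 7 and DKO 8 had Xist, so group and sex are partly mixed. TPM keeps no read counts, and the depth of these libraries is therefore unknown. In bulk tissue, fewer cells of a type and less RNA per cell cannot be told apart.

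Tgfb2, the ligand that binds TGFBR2 well only with betaglycan, rose 2.44-fold. Its gene lies on chromosome 1 (186622787 to 186709697, minus strand, GRCm38). It had 6.96, 6.07 and 7.94 TPM in WT replicates 4, 5 and 6 and 12.4, 21.9 and 16.9 TPM in DKO replicates 7, 8 and 9. All 3 DKO values lay above the WT values, and they spread widely, from DKO 7 to DKO 8. The means were 6.99 ± 0.932 and 17.1 ± 4.74 TPM, and the log2 difference was 1.15 (SE 0.21; limma, adjusted p = 0.0210). The call was lost without WT 4 (limma, adjusted p = 0.0541), WT 5 (0.0591), DKO 8 (0.0516) or DKO 9 (0.0579), with log2 differences of 0.96 to 1.35 over the 6 fits that left out 1 library.

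Tgfb3, a ligand known for palate and lung development, rose 1.72-fold. It lies on chromosome 12 (86056743 to 86079041, minus strand). WT libraries had 18.5, 13.6 and 15.6 TPM and DKO libraries 22.7, 30.7 and 28.7 TPM. The lowest DKO library, DKO 7, was above the highest WT library, WT 4. Means of 15.9 ± 2.49 and 27.4 ± 4.18 TPM gave a log2 difference of 0.75 (SE 0.16; limma, adjusted p = 0.0304). The call was lost without WT 5 (limma, adjusted p = 0.0760), WT 6 (0.0824), DKO 8 (0.0928) or DKO 9 (0.0834). Tgfb3 overlaps Ttll5 on the opposite strand; the libraries were strand-specific, but no source used here says whether reads were assigned by strand. Ttll5 had 10.4 to 11.7 TPM in WT and 10.2 to 10.6 TPM in DKO (limma, adjusted p = 0.751).

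Tgfb1, the ligand most often studied in fibrosis, had overlapping groups. It lies on chromosome 7 (25687002 to 25705077, plus strand), the chromosome that also carries Ltbp4. WT libraries had 23.8, 30.7 and 29.4 TPM and DKO libraries 24.9, 27.99 and 31.7 TPM. The means were 27.98 ± 3.68 and 28.2 ± 3.42 TPM, and the 95% interval of the log2 difference ran from -0.30 to 0.33 (limma, adjusted p = 0.967). The sign of its log2 difference of 0.01 turned with median-ratio scaling (-0.02), with rescaling without haemoglobin, structural and short RNA (-0.0043), without WT 4 (-0.10) and without DKO 9 (-0.07).

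The ligands therefore stood in other proportions in the 2 groups. Tgfb1 made up 48.3%, 61.0% and 55.6% of the summed ligand TPM in WT 4, WT 5 and WT 6, and 41.5%, 34.8% and 41.0% in DKO 7, DKO 8 and DKO 9. The share of Tgfb1 was thus lower in each DKO library than in any WT library. Tgfb2 made up 12.1% to 15.0% in WT and 20.6% to 27.1% in DKO, and Tgfb3 27.0% to 37.6% in WT and 37.1% to 38.1% in DKO, where the Tgfb3 ranges overlapped through WT 4. Tgfb1 exceeded Tgfb2 by a factor of 4.06 ± 0.872 in WT and 1.72 ± 0.389 in DKO. The ratio of Tgfb1 to Tgfb3 was 1.81 ± 0.493 in WT and 1.04 ± 0.110 in DKO. In DKO 8 Tgfb1 was below Tgfb3, with a ratio of 0.912, against 1.10 in DKO 7 and 1.11 in DKO 9. The summed TPM of the 3 ligands was 49.3, 50.4 and 53.0 in WT and 59.97, 80.5 and 77.4 in DKO, a ratio of 1.43 between the group means. These shares and sums carry no test, since they are scores over genes chosen together.

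**Figure D2:**
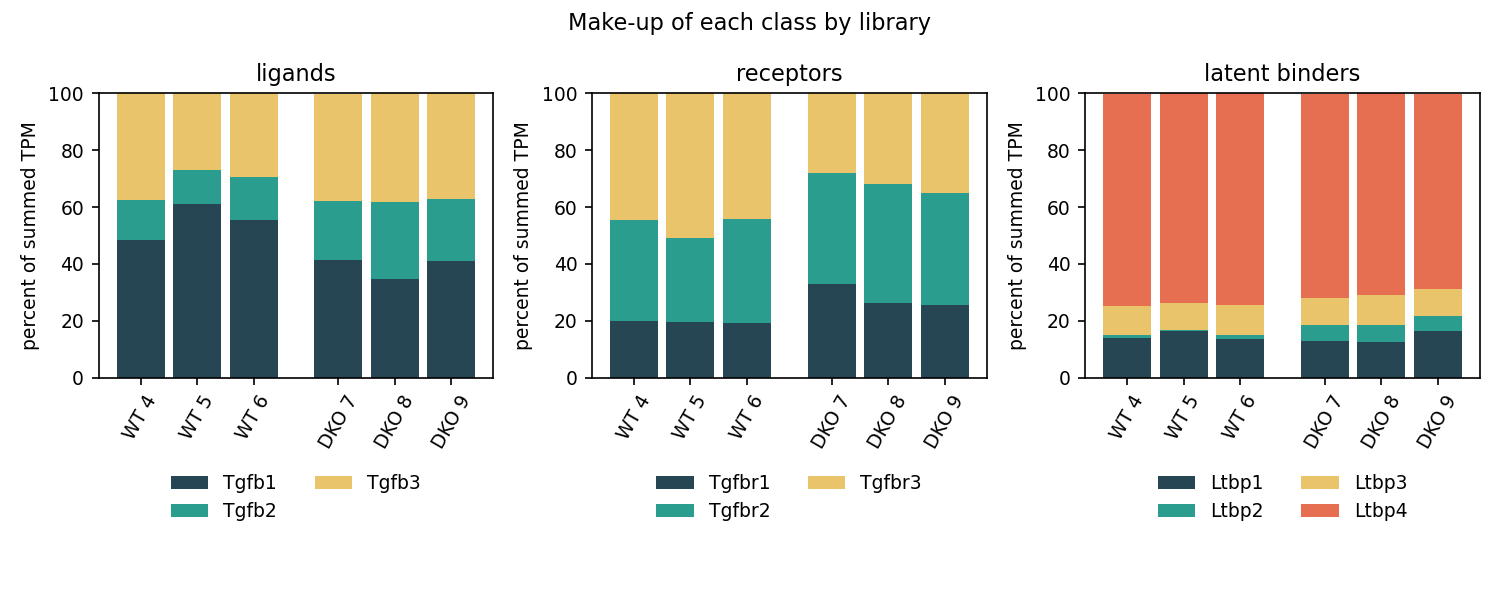
Share of each gene in the summed TPM of its class (percent, vertical axis) in each of the 6 libraries (horizontal axis), for ligands, receptors and latent binders. The Tgfb1 share is 48.3% to 61.0% in WT and 34.8% to 41.5% in DKO, and the Tgfbr3 share is 44.0% to 50.8% in WT and 27.9% to 34.96% in DKO.

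Among the receptors, the type I receptor kinase Tgfbr1 rose 1.53-fold. It lies on chromosome 4 (47353222 to 47414926, plus strand). WT libraries had 20.7, 21.4 and 19.3 TPM and DKO libraries 34.6, 31.4 and 28.2 TPM. The WT values lay within a narrow range and every DKO value was above them, with DKO 7 highest. The mean went from 20.5 ± 1.08 to 31.4 ± 3.19 TPM, and the log2 difference was 0.59 (SE 0.10; limma, adjusted p = 0.0177). The call was lost without WT 6 (limma, adjusted p = 0.0587) or DKO 8 (0.0619).

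The type II receptor Tgfbr2, the ligand-binding kinase on chromosome 9 (116087695 to 116175363, minus strand), did not pass the threshold. It had 37.0, 32.7 and 37.2 TPM in WT and 40.8, 50.3 and 43.3 TPM in DKO. The groups did not overlap, but the gap between WT 6 and DKO 7 was small. The log2 difference was 0.32, with a 95% interval from 0.07 to 0.57 (limma, adjusted p = 0.102).

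The co-receptor Tgfbr3 was the only one of the 10 genes whose libraries labelled DKO all lay below WT, and it did not pass either. It lies on chromosome 5 (107106567 to 107289629, minus strand). WT libraries had 46.4, 55.9 and 44.4 TPM and DKO libraries 29.1, 38.0 and 38.4 TPM. All DKO values were below all WT values, with DKO 7 lowest. The means were 48.9 ± 6.15 and 35.2 ± 5.25 TPM, and the log2 difference was -0.47 with a 95% interval from -0.80 to -0.14 (limma, adjusted p = 0.0815). The adjusted p of Tgfbr3 was 0.0508 to 0.118 over the 8 alternatives of scaling, filter, pseudocount and variance model, and 0.107 to 0.187 over the fits that left out 1 library. The ratio of Tgfbr3 to Tgfbr1 was 2.24, 2.61 and 2.30 in WT and 0.843, 1.21 and 1.36 in DKO. The ratio of Tgfbr3 to Tgfbr2 was 1.26, 1.71 and 1.19 in WT and 0.715, 0.756 and 0.888 in DKO. In WT the co-receptor was thus the most abundant of the 3 receptor transcripts in each library, and in DKO Tgfbr2 was. The summed receptor TPM was 101 to 110 in WT and 105 to 120 in DKO, with overlapping ranges.

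Ltbp2 had the largest rise of the 10 genes, 6.49-fold. It encodes the latent binding protein that, unlike the other members of its family, does not bind latent TGF-beta, and is known instead as a partner of fibrillin in elastic microfibrils. The gene lies on chromosome 12 (84783212 to 84876558, minus strand), the chromosome that also carries Tgfb3. WT libraries had 2.65, 1.27 and 3.98 TPM and DKO libraries 15.1, 21.2 and 15.0 TPM. The lowest DKO value was several times the highest WT value, while the WT values themselves spread widely around a low mean. The mean went from 2.63 ± 1.36 to 17.1 ± 3.58 TPM, and the log2 difference was 2.37 (SE 0.30; limma, adjusted p = 0.00734). It ranked 53rd from the highest log2 difference among the 14541 genes tested. The call was kept in each of the 6 fits that left out 1 library (limma, adjusted p = 0.0123 to 0.0290), in which the ratio ran from 5.15 without WT 5 to 8.72 without WT 6. The antisense gene D030025P21Rik overlaps Ltbp2 on the opposite strand and had at most 0.444 TPM in any library.

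The other latent binding proteins, which do carry latent TGF-beta, had overlapping groups. Ltbp4, known for its role in elastic fibre assembly through fibulins, lies on chromosome 7 (27305140 to 27339720, minus strand) and was the most abundant of the 10 genes. It had 202, 186 and 184 TPM in WT and 192, 244 and 196 TPM in DKO, so that DKO 8 stood above the other 5 libraries. The 95% interval of its log2 difference ran from -0.11 to 0.38 (limma, adjusted p = 0.461). Ltbp1, the first described binder and a carrier of latent TGF-beta 1, lies on chromosome 17 (75005480 to 75392512, plus strand) and had 37.8, 41.6 and 33.2 TPM in WT and 34.3, 42.6 and 47.1 TPM in DKO. Its interval ran from -0.20 to 0.46 (limma, adjusted p = 0.609). Ltbp3, known for roles in skeleton and teeth, lies on chromosome 19 (5740900 to 5758536, plus strand) and had 27.6, 24.1 and 25.5 TPM in WT and 25.4, 35.8 and 26.6 TPM in DKO. Its interval ran from -0.17 to 0.50 (limma, adjusted p = 0.518).

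Within the latent binders, Ltbp2 made up 0.983%, 0.501% and 1.62% of the summed TPM in WT and 5.66%, 6.18% and 5.26% in DKO. Ltbp4 exceeded it by factors of 46.2 to 147 in WT and 11.5 to 13.1 in DKO. Even in DKO, then, Ltbp4 took most of the class, with 68.8% to 72.0% against 73.6% to 74.8% in WT.

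**Figure D3:**
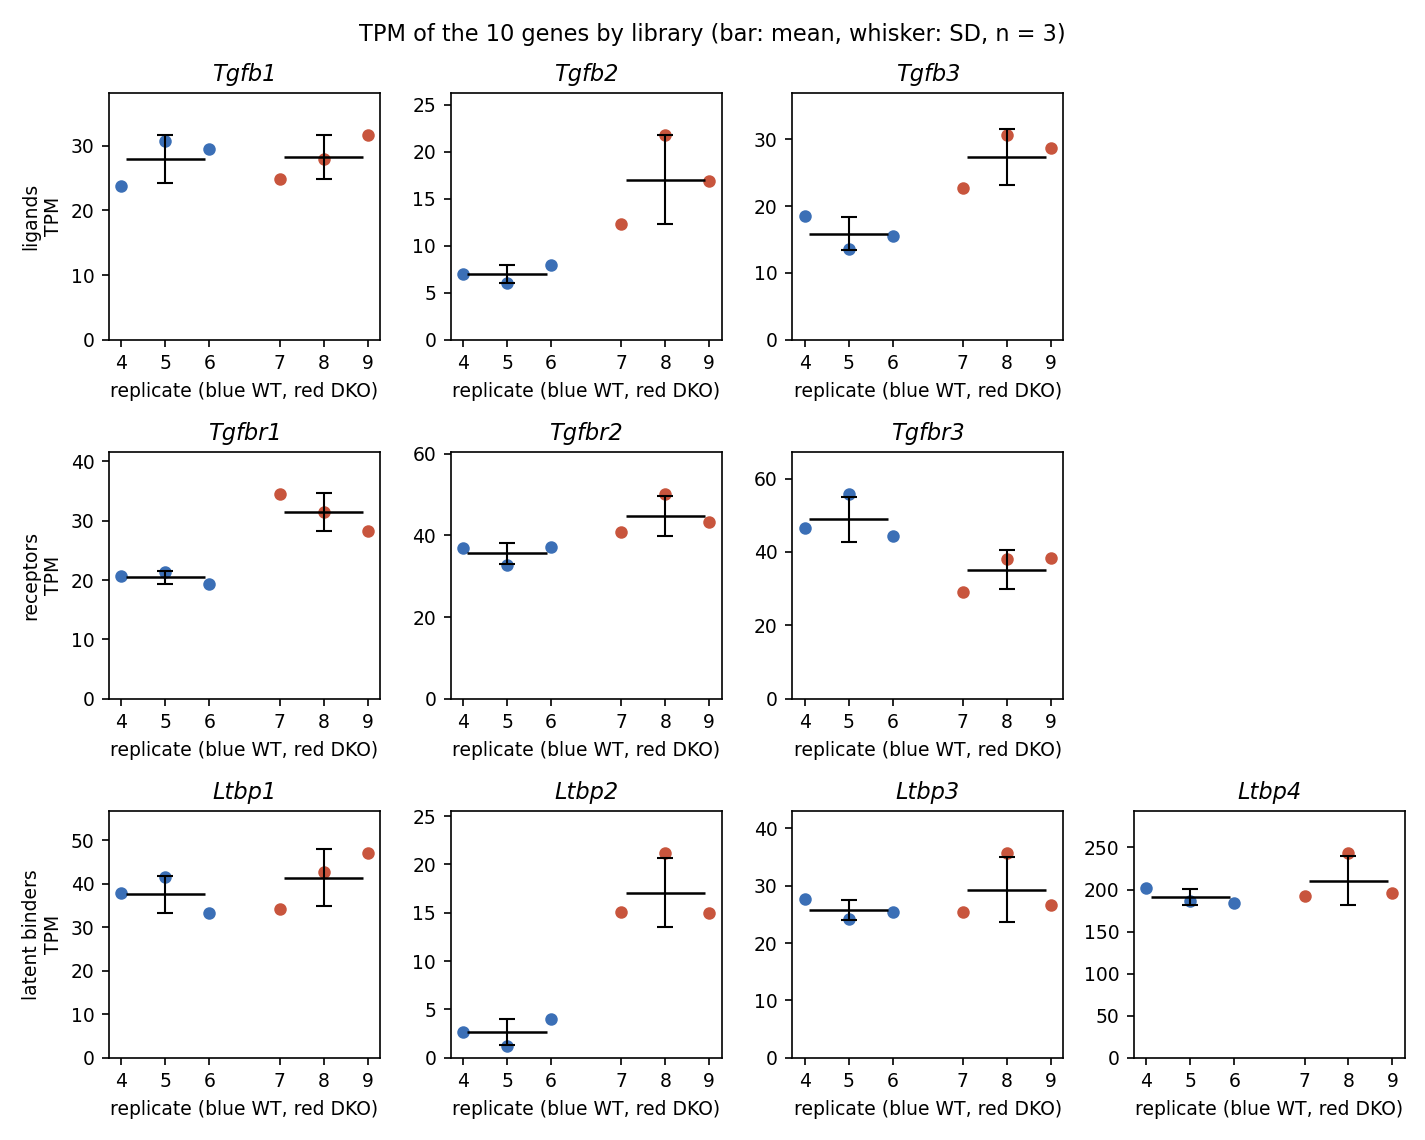
TPM of each of the 10 genes (vertical axis, from 0) in WT replicates 4 to 6 (blue) and DKO replicates 7 to 9 (red), with the group mean (bar) and SD (whisker). The groups are apart for Tgfb2, Tgfb3, Tgfbr1, Tgfbr2, Tgfbr3 and Ltbp2 and overlap for the other 4 genes; DKO 8 is the highest DKO library for 6 genes.

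The order of levels also differed between the groups, as the order of means in TPM. In WT it was Ltbp4, Tgfbr3, Ltbp1, Tgfbr2, Tgfb1, Ltbp3, Tgfbr1, Tgfb3, Tgfb2 and Ltbp2. Neighbours overlapped for Ltbp1 and Tgfbr2 and for Tgfb1 and Ltbp3, and no other neighbours did. In DKO it was Ltbp4, Tgfbr2, Ltbp1, Tgfbr3, Tgfbr1, Ltbp3, Tgfb1, Tgfb3, Ltbp2 and Tgfb2. There only Ltbp4 stood clear of Tgfbr2 and Tgfb3 clear of Ltbp2, while the other 7 pairs of neighbours overlapped. DKO 8 was the highest DKO library for 6 of the 10 genes and DKO 7 the lowest for 8. These libraries also stood apart over all genes: the factor used for median-ratio scaling was highest in DKO 8, at 1.05, and lowest in DKO 7, at 0.966. How often all genes had this order was not counted.

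DKO 9 has Y-linked transcripts as the WT libraries do, and its values can be set against them without a difference in sex. It lay above every WT library for Ltbp2, Tgfb2, Tgfb3 and Tgfbr1, with log2 differences from the WT mean of 2.21, 1.17, 0.82 and 0.45. In the 4 libraries with Y-linked transcripts 0 of the 10 genes passed, and these 4 were higher at an unadjusted p under 0.05, as 9.03% of all genes were (limma, adjusted p = 0.145, 0.114, 0.181 and 0.245 in that order), with 1 DKO library whose spread was assumed to be that of WT; 29 of all genes passed. A term for sex-linked transcripts over all 6 libraries gave the same log2 differences and also 0 calls among the 10, with the same 4 higher at an unadjusted p under 0.05, as 9.25% of all genes were (limma, adjusted p = 0.103, 0.187, 0.198 and 0.216), and 92 over all genes. With replicate 7 counted as WT, as its genotype tag has it, 0 of the 10 passed and 1 of all genes did. Ltbp2, Tgfb2, Tgfb3 and Tgfbr2, but not Tgfbr1, were then higher at an unadjusted p under 0.05, as 7.93% of all genes were; Ltbp2 then differed by 1.89 and Tgfbr1 by 0.34 on the log2 scale (limma, adjusted p = 0.501 and 0.611).

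**Figure D4:**
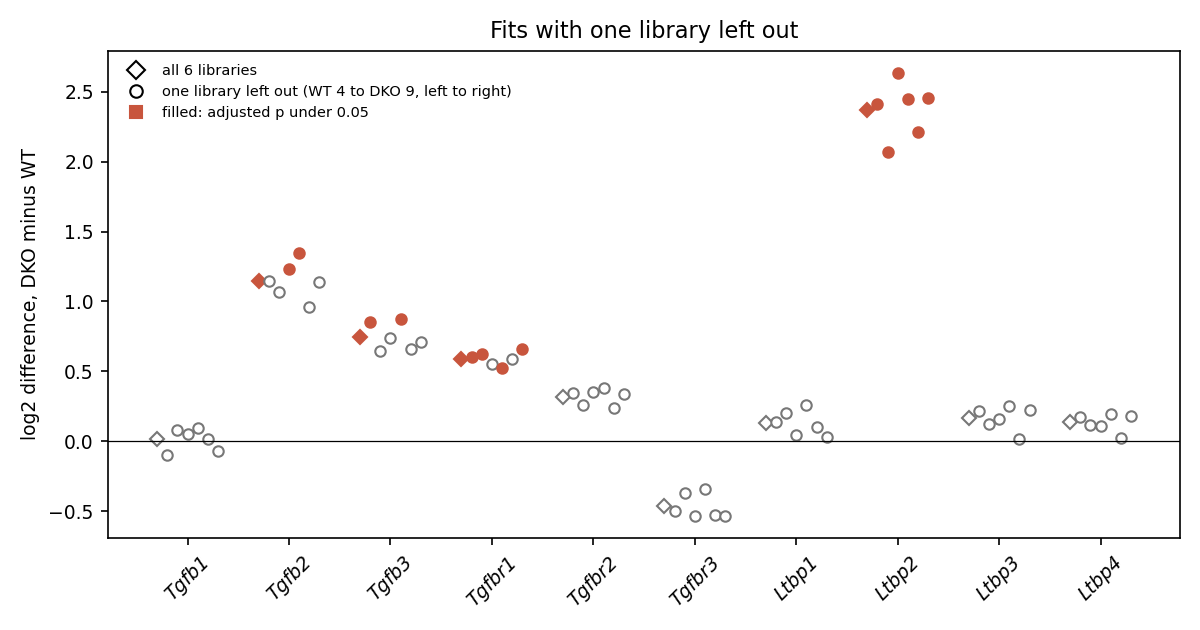
Log2 difference between DKO and WT for each gene with all 6 libraries (diamond) and with 1 library left out in turn (circles), filled where the adjusted p was under 0.05. Ltbp2 is filled throughout, at 2.07 to 2.63, whereas 4 circles of Tgfb2, 4 of Tgfb3 and 2 of Tgfbr1 are open.

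Cell type markers moved beside these genes, and their part in the results was not tested. No marker of the 7 lists described here was at 0 in all libraries. Of 8 fibroblast markers 3 rose and 0 fell (Lum, Col1a1 and Col1a2), and their summed level was 1252 to 1332 TPM in WT and 1132 to 1515 TPM in DKO. Gsn, which other cells also express, took 58.9% to 74.3% of that sum; without it the sum was 333 to 392 TPM in WT and 447 to 622 TPM in DKO, a ratio of 1.45. Without Gsn and the collagen genes Col1a1 and Col1a2, which are also on the list of genes induced by TGF-beta, it was 218 to 234 TPM in WT and 244 to 327 TPM in DKO, a ratio of 1.23. The other 5 markers did not pass: the log2 differences were 0.50 for Tcf21, 0.16 for Dpt, 0.08 for Pdgfra, -0.11 for Ddr2 and -0.24 for Gsn (limma, adjusted p = 0.141, 0.519, 0.760, 0.516 and 0.204). Of 8 macrophage markers 5 rose and 0 fell, with sums of 188 to 291 TPM in WT and 413 to 560 TPM in DKO. Of 8 endothelial markers 0 rose and 3 fell, with sums of 786 to 905 TPM and 674 to 765 TPM. Smooth muscle and pericyte markers gave 0 higher and 2 lower of 8, with sums of 932 to 969 TPM and 723 to 772 TPM; both that fell, Kcnj8 and Abcc9, encode channel subunits, and Abcc9 is also expressed by cardiomyocytes. Cardiomyocyte markers gave 1 higher, the sarcomere protein Ttn, and 2 lower, Tnni3 and Ryr2, of 7, with sums of 36095 to 38120 TPM and 30954 to 33089 TPM. Platelet markers, of interest because platelets store TGF-beta 1, gave 0 higher and 0 lower of 5 (limma; also 0 at an unadjusted p under 0.05), with 57.0 to 169 TPM and 36.8 to 88.5 TPM. Erythroid markers gave 0 higher and 0 lower of 5 (limma), but all 5 were lower at an unadjusted p under 0.05, with sums of 6042 to 38458 TPM in WT and 1781 to 6763 TPM in DKO.

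Set against the fibroblast, macrophage, endothelial, smooth muscle and cardiomyocyte sums, Ltbp2 had the highest ratio of the 10 genes each time. It also had the highest ratio in plain TPM, 6.49. Within a library each sum divides all 10 genes alike and largely keeps their order, so this could hardly differ. Per 1000 TPM of fibroblast markers, Ltbp2 had 2.05 ± 1.10 TPM in WT and 12.9 ± 1.40 TPM in DKO, a ratio of 6.29, and 4.58 when Gsn was left out of the markers. For Tgfb2 the ratio was 2.35, and 1.66 without Gsn, with DKO above WT in both. For Tgfb3 it was 1.69 and 1.19, also without overlap, and for Tgfbr1 1.53 and 1.08, where the groups overlapped without Gsn. Per 1000 TPM of macrophage markers the groups did not overlap for Ltbp2, with a ratio of 3.46, and overlapped for Tgfb2, Tgfb3 and Tgfbr1, with ratios of 1.25, 0.870 and 0.744. Against the markers that were lower in DKO the ratios were higher: Tgfb2 had 2.91, 3.08 and 2.80 per endothelial, smooth muscle and cardiomyocyte markers, Tgfb3 2.07, 2.18 and 1.99, Tgfbr1 1.84, 1.95 and 1.78, and Ltbp2 7.91, 8.16 and 7.43, with DKO above WT each time. Per fibroblast markers without Gsn, 5 of the 10 genes lay below WT without overlap: Tgfbr3 (ratio 0.491), Tgfb1 (0.696), Ltbp4 (0.762), Ltbp3 (0.781) and Tgfbr2 (0.872). That sum still holds Col1a1 and Col1a2, which rose, and ratios to the sum without them are not given for these 5 genes. The same 5 lay below WT per macrophage markers, with ratios of 0.353, 0.500, 0.546, 0.565 and 0.629. Both marker sums were themselves higher in DKO, with ratios of 1.45 and 1.99, so a gene of unchanged TPM comes out lower against them. How many of all genes lay below WT in this way was not counted. In plain TPM the groups overlapped for Tgfb1, Ltbp3 and Ltbp4, and Tgfbr2 lay above WT. Leaving out Gsn, with or without the collagens, was chosen after seeing the data.

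The rest of the pathway was described by 5 lists of 108 genes, of which 102 were tested and none is among the 10. Among all genes tested 10.7% passed, and their count went from 1560 to between 628 and 876 when 1 library was left out. Over all lists 34 genes passed in either direction, against 17 without DKO 8, 22 without WT 4 and 22 without DKO 7. With the term for sex-linked transcripts 3 passed, in the libraries with Y-linked transcripts 1, and with replicate 7 as WT 0. Genes known to be induced by TGF-beta gave 13 higher and 2 lower of 22 tested, so 68.2% were called against 10.7% of all genes. Their median log2 difference was 1.01, against 0.03 over all genes. The list was chosen with earlier results of these data known, so its count is no independent evidence of a direction. It fell from 15 to 9 without DKO 8. Comp, a pentameric cartilage matrix protein, had 7.45 ± 1.51 TPM in WT and 63.1 ± 10.2 TPM in DKO, Postn (periostin) 36.9 ± 8.82 and 154 ± 8.06 TPM, the collagen crosslinking enzyme Lox 3.11 ± 0.675 and 13.7 ± 3.07 TPM, and Timp1, a metalloproteinase inhibitor, 2.70 ± 1.89 and 29.3 ± 7.05 TPM. Each of these 4 stayed called in the 6 fits that left out 1 library, which is favoured by their choice as the lowest p of the list. The ratio of Timp1 was 10.8, or 17.6 without WT 6. The connective tissue growth factor Ctgf rose as well, from 78.2 ± 30.4 to 216 ± 38.1 TPM (log2 difference 1.51; limma, adjusted p = 0.0172), a call lost without WT 6 (0.0536), DKO 7 (0.0533) or DKO 8 (0.0597).

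Among the genes of that list that fell was Tagln. It encodes the smooth muscle protein transgelin and had 51.2, 40.7 and 39.0 TPM in WT and 21.4, 26.7 and 24.3 TPM in DKO, a log2 difference of -0.83 (SE 0.13; limma, adjusted p = 0.0144). The call was kept in each fit that left out 1 library. Acta2, the smooth muscle actin of the same list, rose from 66.5 ± 11.1 to 227.6 ± 63.3 TPM (limma, adjusted p = 0.00726). Both are smooth muscle genes, and the summed smooth muscle and pericyte markers given above were lower in DKO; their part was not tested. Tagln, Acta2, Ctgf, Fbn1 and the SMAD genes below were chosen after their values were seen.

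Matrix partners and extracellular antagonists gave 8 higher and 0 lower of 16 (10 and 0 at an unadjusted p under 0.05), and the median log2 difference was 0.65. Of this list 50% were called, against 10.7% of all genes, and it too was chosen with earlier results of these data known. Fbn2, the fibrillin of developing microfibrils, rose from 1.42 ± 0.518 to 7.37 ± 1.81 TPM, the microfibril protein Mfap5 from 17.5 ± 4.24 to 48.5 ± 7.47 TPM, fibulin-2 (Fbln2) from 57.7 ± 8.74 to 104 ± 12.3 TPM and Bgn, the proteoglycan biglycan that binds TGF-beta, from 193 ± 45.1 to 484 ± 61.7 TPM. These 4 calls were kept in each fit that left out 1 library, which is again favoured by their choice as the lowest p of the list. Fbn1, the fibrillin to which latent binding proteins attach, had 53.5, 37.2 and 58.2 TPM in WT and 89.9, 128 and 86.2 TPM in DKO (limma, adjusted p = 0.0291), a call lost without WT 4 (0.0577), WT 5 (0.0565), DKO 7 (0.0646) or DKO 8 (0.0719), and with no variance trend (0.0519). The list's count was 5 without DKO 7 and 5 without DKO 8. The sums of macrophage markers and of fibroblast markers without Gsn given above moved with this list and the preceding one, which shares Col1a1 and Col1a2 with the fibroblast markers, and their part was not tested.

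Genes of activation and release gave 5 higher and 2 lower of 17, and the median log2 difference was 0.26. Of this list 41.2% were called, against 10.7% of all genes, and it too was chosen with earlier results of these data known. Itgb5, the beta subunit of an integrin that activates latent TGF-beta, rose from 74.9 ± 10.1 to 113 ± 5.44 TPM. Plat, tissue plasminogen activator, rose from 16.9 ± 2.19 to 27.7 ± 2.75 TPM, and Mmp14, a membrane-bound metalloproteinase, from 14.6 ± 1.46 to 21.6 ± 1.76 TPM. Itgb6, the beta subunit of another activating integrin, fell from 35.6 ± 6.15 to 19.7 ± 3.89 TPM. These calls were less firm: Mmp14 was lost in each fit that left out 1 library (limma, adjusted p = 0.0546 to 0.0964), Plat without WT 4 (0.0557), WT 5 (0.0524), DKO 7 (0.0636) or DKO 8 (0.0724), Itgb6 without WT 4 (0.0889), WT 6 (0.0950), DKO 7 (0.0905) or DKO 9 (0.0857), with no filter (0.0506) and with no variance trend (0.0546), and Itgb5 without DKO 8 (0.0699) or DKO 9 (0.0551). The list's count fell from 7 to 1 without WT 4, DKO 7, DKO 8 or DKO 9, to 2 without WT 5 and to 3 without WT 6.

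Receptor partners, SMADs and feedback inhibitors gave 1 higher and 0 lower of 22 (3 and 1 at an unadjusted p under 0.05), and the median log2 difference was 0.02. Of this list 4.55% were called, against 10.7% of all genes. An unadjusted p under 0.05 was reached by 27.0% of all genes. The gene that passed was Tab1, which encodes a partner of the kinase TAK1, from 16.5 ± 0.823 to 24.8 ± 1.78 TPM (limma, adjusted p = 0.0171), a call lost without WT 4 (0.0544), WT 6 (0.0552), DKO 8 (0.0622) or DKO 9 (0.0523). Skil, a feedback inhibitor of SMADs, had 16.4 ± 2.02 and 22.9 ± 1.23 TPM (limma, adjusted p = 0.0514, and 0.0365 to 0.0694 over 8 alternatives of scaling, filter, pseudocount and variance model). Pmepa1, another, had 16.2 ± 5.17 and 28.4 ± 2.46 TPM (limma, adjusted p = 0.0690, and 0.0382 to 0.101 over the same alternatives), and the phosphatase Ppm1a 128 ± 3.04 and 112 ± 6.18 TPM (limma, adjusted p = 0.128). The receptor-activated Smad2 and Smad3 had 11.9 ± 1.39 and 13.7 ± 2.11 TPM in WT and 12.4 ± 1.33 and 16.5 ± 1.60 TPM in DKO, and the inhibitory Smad7 22.5 ± 4.68 and 21.2 ± 3.16 TPM (limma, adjusted p = 0.837, 0.311 and 0.857).

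The BMP, activin and GDF branch gave 3 higher and 0 lower of 25, so 12% were called against 10.7% of all genes. At an unadjusted p under 0.05, which 27.0% of all genes reached, 6 were higher and 2 lower. The median log2 difference was 0.07. The stress-induced ligand Gdf15 rose from 1.15 ± 0.535 to 12.6 ± 6.07 TPM, the follistatin-like Fstl1 from 68.7 ± 13.2 to 130.3 ± 12.6 TPM and the BMP antagonist Nbl1 from 13.2 ± 1.70 to 30.8 ± 10.9 TPM. The Fstl1 call was lost without DKO 8 (limma, adjusted p = 0.0511), and the Nbl1 call without WT 4 (0.0663), WT 5 (0.0806), WT 6 (0.0657) or DKO 7 (0.0576). Inhba, the subunit of activin A, had 1.66 ± 0.528 and 4.03 ± 1.25 TPM and did not pass (limma, adjusted p = 0.0750).

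**Figure D5:**
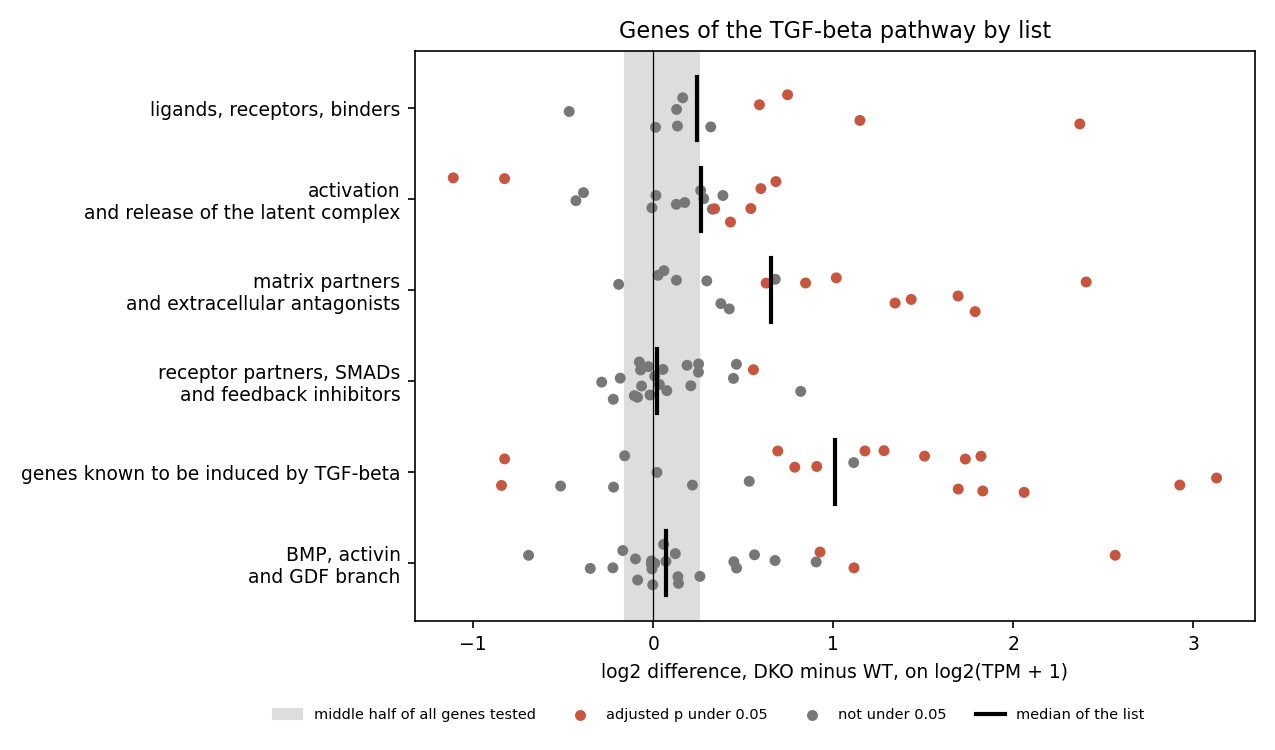
Log2 difference between DKO and WT (horizontal axis) of every tested gene of the 5 pathway lists and of the 10 ligands, receptors and binders, red where the adjusted p was under 0.05, with the median of each list (black bar) and the interquartile range of all genes tested (grey band). The medians lie at 1.01 for induced genes and 0.65 for matrix partners, and at 0.02 for receptor partners, SMADs and feedback inhibitors.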

How the data were processed

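The authors deposited 1 table of TPM values per gene and library, without pooling of replicates; the submitters' processing notes name bcl2fastq, kallisto 0.44.0 and the mm10 build. Annotation, strand setting and the step from transcripts to genes were not given in the sources used here. Per the labels, total RNA was read in strand-specific pairs of 75 bases. TPM keeps no counts, so no counting interval is given.

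The filter kept genes that reached 1 TPM in 3 or more libraries. The test was limma 3.58.1 in R 4.3.3 (functions lmFit and eBayes, the latter with a trend) on log2(TPM + 1), a scale that understates the change of low genes. P-values were adjusted by Benjamini-Hochberg over all genes tested, with a threshold of 0.05. The fit was tested on simulated data. Columns were matched to samples by title. All 10 symbols matched RefSeq genes of GRCm38.p6; strands and overlaps are from GENCODE.

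Named are the 10 genes, Mbnl1 and Mbnl2, from each pathway list the 4 of lowest p, and those said to be chosen later. Genes and lists were chosen with earlier results of these data known. Ctgf is listed under its older symbol. Of 12 marker lists, those of epicardial cells (0 higher and 0 lower of 5 tested), lymphocytes (0 and 1 of 2), skeletal muscle (0 and 1 of 3) and Schwann cells (0 and 0 of 2) and the sex-linked list (0 and 0 of 4) are given here only. Figures were drawn with matplotlib 3.10.9. Some items are not reported here.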

Additional observations from a re-analysis of the deposited data

How the results depend on the processing

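Ltbp2, Tgfb2, Tgfb3 and Tgfbr1 kept their direction under all 17 alternatives, and their calls under the 8 of scaling, filter, pseudocount and variance model. With 1 library left out, 1 to 4 of the 10 genes passed, 17 to 26 pathway genes and 628 to 876 of all genes, against 4, 34 and 1560 with 6 libraries; these fits have fewer samples. With replicate 7 as WT the counts were 0, 0 and 1, with a term for sex-linked transcripts 0, 3 and 92, and in libraries with Y-linked transcripts alone 0, 1 and 29; the cause was not tested. Counting replicate 7 as WT moved the share of Tgfbr1 among receptors from 8.83 to 3.06 percentage points above WT and that of Ltbp2 among binders from 4.67 to 3.53.

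Signs turned for genes that did not pass: Tgfb1 (-0.0187 with median-ratio scaling, -0.0043 with rescaling without haemoglobin, structural and short RNA, and -0.0955 to 0.0961 with 1 library left out), Smad2 (-0.0102 with quantile scaling, and -0.0370 to 0.114 with 1 library left out) and Smad7 (0.0097 with replicate 7 as WT, and -0.240 to 0.0457 with 1 library left out). No paired analysis was possible because WT and DKO share no replicate numbers. Depth is unknown, so its limit cannot be given.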
